A study of Mus musculus with 4 samples.

Results

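The expressed long non-coding RNA genes of mouse neural progenitor cells were examined after knockdown of Rybp. They were the genes that the authors' table types as lncRNA and that had a mean level of at least 2 FPKM (fragments scaled by gene length and library size) over the 4 libraries. There were 193 of them, out of 579 lncRNA genes and 13881 genes in all. They were chosen by their mean FPKM over both groups, so their levels are given as a description. The genes nearest to the threshold were A230072C01Rik, AI480526 and Gm14662 on the outside, each with a mean of 1.99 FPKM, and 2310015A10Rik and 2810402E24Rik on the inside, each with a mean of 2.00 FPKM.

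Both groups held primary cells of the embryonic forebrain, from C57BL/6 mice at embryonic day 14. The cells were expanded without differentiation in DMEM/F-12 with 2% B27 lacking vitamin A and with EGF and FGF-2 at 20 ng/ml each, which keep progenitors dividing. The shRybp group (2 libraries) was infected with lentivirus carrying a short hairpin RNA that targets Rybp, whose product is a subunit of a variant Polycomb repressive complex. The control group (2 libraries) carries the label ctrl for its shRNA, and what that vector carries is not known from the sources used here. No label says that the replicates are separate cultures or litters, so p-values cover only how far these libraries differ within a group, a spread that may be technical. Strand is not given either, so where a coding gene overlaps a long non-coding RNA gene their reads cannot be told apart.

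Long non-coding RNAs are transcripts with no recognised protein product. Some stay in the nucleus and organise chromatin or splicing factors, and some are mainly carriers: their introns or hairpins are cut out to give small nucleolar RNAs (snoRNAs), which guide the modification of ribosomal RNA, or microRNAs, which repress messenger RNAs. Many others start back to back with a coding gene and share its promoter region.

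Total counts were 14355308 and 16400480 in the shRybp libraries and 17598873 and 15938646 in the control libraries, and the 193 genes took 0.620% and 0.750% of them in shRybp and 0.597% and 0.672% in control. Rybp itself had 3.01 and 2.66 FPKM in shRybp libraries and 4.43 and 3.95 FPKM in control libraries, a log2 fold change of -0.60 ± 0.12 as SE (edgeR adjusted p = 0.0017). All 8 listed neural progenitor markers were measured in every library, and 2 of them (Vim and Nes) rose and 5 fell. The 8 listed astrocyte markers all fell, with summed levels of 240 and 260 FPKM in shRybp and 603 and 615 FPKM in control. Of 8 oligodendrocyte lineage markers, 3 fell and none rose (summed 737 and 774 FPKM in shRybp, 801 and 827 FPKM in control). Of the 5 neuronal markers with enough reads to test, 1 rose and 2 fell (summed 70.8 and 64.1 FPKM in shRybp, 72.1 and 71.9 FPKM in control), and microglial and endothelial markers summed to under 1 FPKM in each library. The part of these markers in the results on long non-coding RNAs was not tested, and in bulk RNA fewer cells of a type cannot be told apart from less RNA per cell.

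Of the 193 genes, 18 rose and 27 fell in shRybp cells at an edgeR adjusted p under 0.05, which is 23.3% of them (9.33% rose and 14.0% fell). Of all 12062 tested genes 33.0% passed (16.3% rose and 16.7% fell), and of tested protein-coding genes 35.6%. The median log2 fold change of the 193 genes was -0.04, beside 0.00 for all tested genes. DESeq2, with its own size factors, called 7 that rose and 18 that fell. Leaving out the second shRybp library left 6 that rose and 16 that fell, and leaving out the first control library left 9 that rose. Of the 45 called genes, 19 changed by at least 1.5-fold, and 2 of them, Miat and H19, by at least 2-fold. Of the 3983 genes called among all tested genes, 927 changed by at least 1.5-fold and 216 by at least 2-fold. The median absolute log2 fold change of called genes was 0.53 among the 193 and 0.40 among all tested genes. Of the 45 called genes, 5 had a mean under 2 FPKM in 1 group: Miat and H19 in shRybp, and Gm807, D130058E05Rik and 2810408I11Rik in control. They entered the set through the group in which they were higher, so that they differ, and their place at the ends of the range, is in part set by the threshold. A group of 19 called genes passed in all 12 alternative fits, 14 that fell and 5 that rose, and none of the 45 changed sign in any of them.

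**Figure D1:**
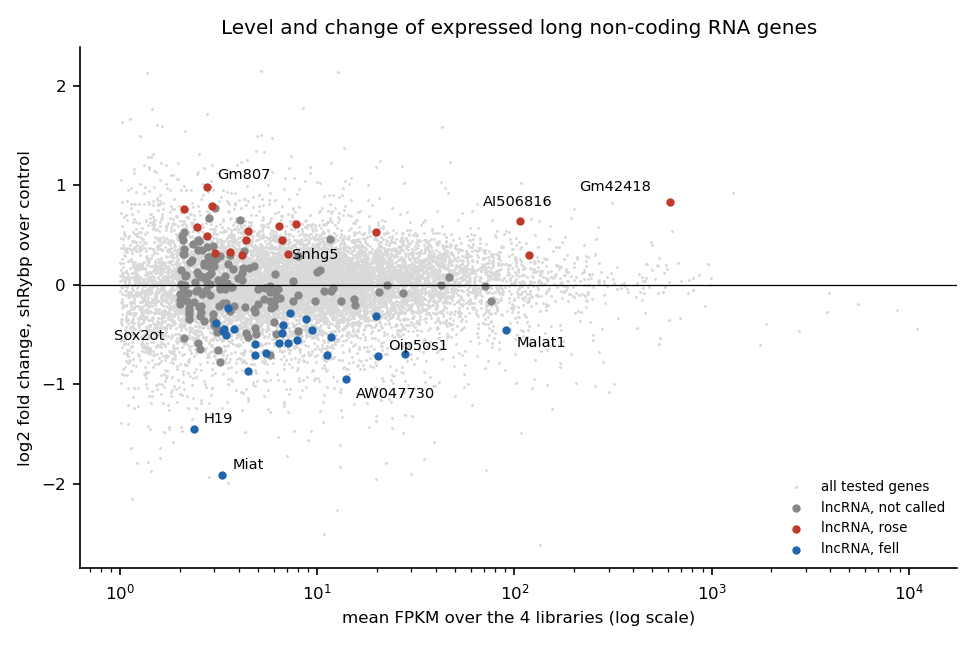
Mean level over the 4 libraries (FPKM, log scale) against the log2 fold change of shRybp over control for the 193 expressed long non-coding RNA genes (coloured by call: red rose, blue fell, grey not called) and all 12062 tested genes (small light points). Miat and H19 lie lowest among the 193, at -1.91 and -1.45, and the most abundant gene is Gm42418 with a mean of 618 FPKM.

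Among the 53 genes with a name rather than a clone symbol, 13 fell and 4 rose, beside 16.7% and 16.3% of all tested genes. The 13 were led by Miat (also known as Gomafu), a nuclear RNA of neural cells that associates with splicing factors. Miat (chr5:112213228-112229395, mm10, minus strand) had 1.38 and 1.42 FPKM in shRybp libraries and 4.27 and 6.06 FPKM in control libraries. The shRybp libraries were nearly equal and lay far below both control libraries, which differed from each other, and the log2 fold change was -1.91 ± 0.14 (± SE, edgeR adjusted p = 1.5e-06). H19 (chr7:142575529-142578143, minus strand), an imprinted RNA transcribed from the maternal allele and the source of miR-675, had 1.39 and 1.19 FPKM in shRybp and 3.27 and 3.59 FPKM in control. Its groups did not overlap, which held for 67.5% of all tested genes, and its log2 fold change was -1.45 ± 0.18 (edgeR adjusted p = 8.5e-05).

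Oip5os1, known as Cyrano, is a conserved RNA that directs the destruction of the microRNA miR-7. Oip5os1 (chr2:119594297-119607502, plus strand) had 16.1 and 15.0 FPKM in shRybp libraries and 24.8 and 25.1 FPKM in control libraries. Replicates of each group lay close together, and the log2 fold change was -0.72 ± 0.06 (edgeR adjusted p = 4.9e-06). Firre (chrX:50555744-50635321, minus strand), a repeat-rich nuclear RNA that takes part in chromosome organisation and the only X-linked gene among the 193, had 3.68 and 3.79 FPKM in shRybp and 5.54 and 6.38 FPKM in control. It fell by 0.71 on the log2 scale (SE 0.09, edgeR adjusted p = 0.00012). Malat1 (chr19:5795690-5802672, minus strand), the abundant RNA of nuclear speckles, had 73.7 and 81.5 FPKM in shRybp and 104 and 103 FPKM in control. It fell by 0.45 on the log2 scale (SE 0.07, edgeR adjusted p = 0.00026), with the control libraries almost equal and above both shRybp libraries. Cerox1 (chr17:25570358-25575043, plus strand), a cytoplasmic RNA that regulates subunits of mitochondrial complex I, had 9.07 and 8.28 FPKM in shRybp and 12.7 and 14.9 FPKM in control, a log2 fold change of -0.71 ± 0.10 (edgeR adjusted p = 0.00023). Miat, H19, Oip5os1, Firre, Malat1 and Cerox1 all passed in each of the 12 alternative fits.

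Of the listed nuclear retained RNAs, 4 were expressed at this level, and Miat, Firre and Malat1 fell, beside 16.7% of all tested genes. This is a count over few genes and not a statement on nuclear RNAs. Miat, under 2 FPKM in shRybp, was in the set only through control. The fourth, Tug1, had 13.1 and 12.1 FPKM in shRybp and 14.3 and 13.2 FPKM in control, a log2 fold change of -0.16 with a 95% interval of -0.32 to -0.01 (edgeR adjusted p = 0.092; 0.043 without the second control library). Neat1 and Meg3, of the same list, lay below the threshold with means of 0.219 and 0.115 FPKM. Of the listed imprinted genes, H19 fell, and Peg13, an imprinted RNA inside Trappc9, had 10.4 and 10.6 FPKM in shRybp and 9.48 and 9.24 FPKM in control (log2 fold change 0.13 with a 95% interval of -0.05 to 0.31, edgeR adjusted p = 0.25).

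**Figure D2:**
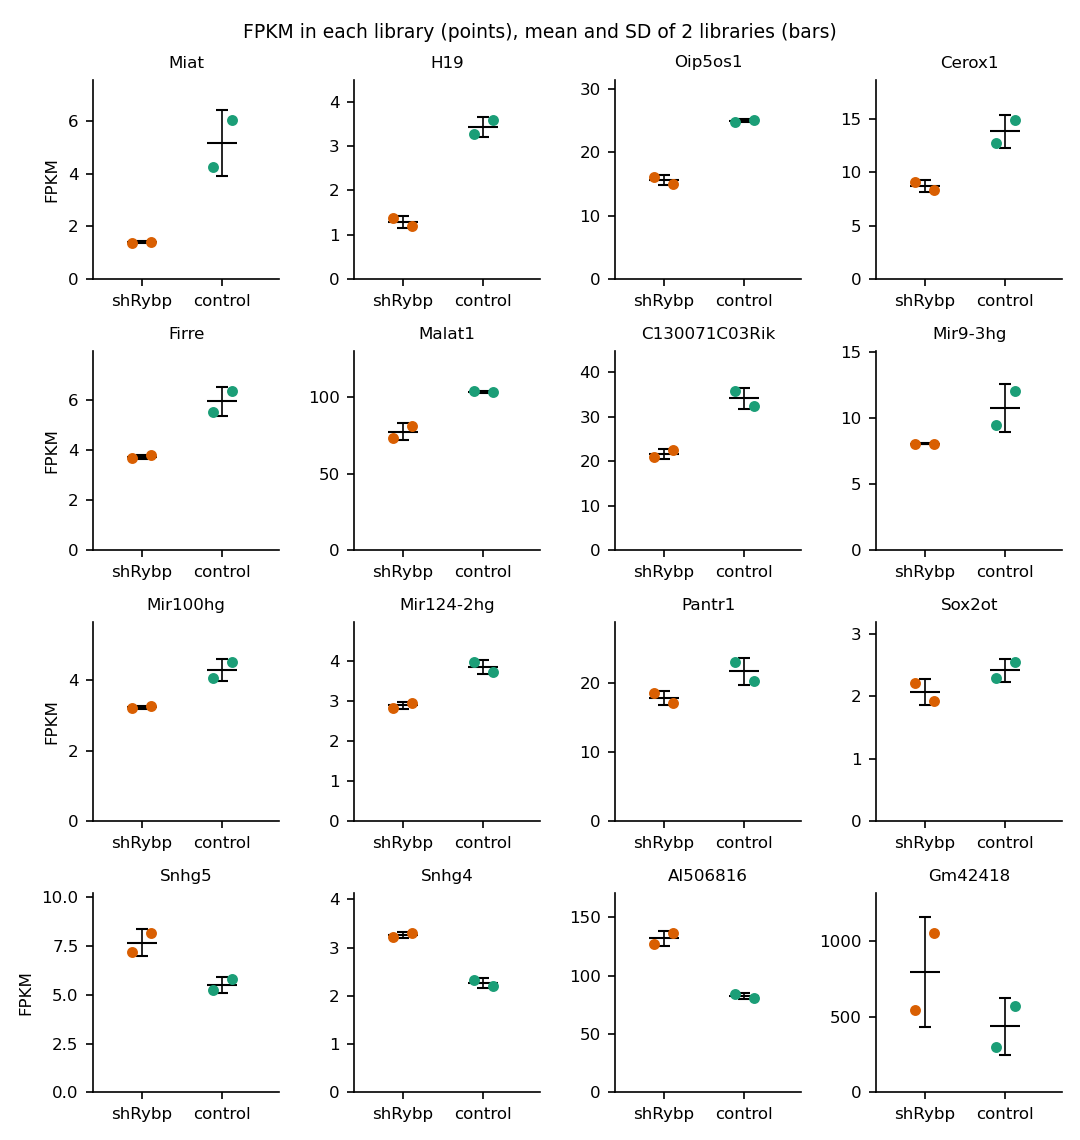
FPKM in each library (points) with the mean and SD of 2 libraries (bars), shRybp on the left and control on the right of each panel, for 16 long non-coding RNA genes. The genes are a selection, and all but Sox2ot were called. In 15 panels the groups do not overlap, beside 67.5% of all tested genes. In the last, Gm42418, the lower shRybp library (543 FPKM) lies below the higher control library (572 FPKM).

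Promoter sequences, taken from RefSeq for GRCm38.p6, are shown for Oip5os1, Firre and Cerox1, which fell in every fit and were picked because they hold motifs. The promoters of Miat and Malat1, which also fell in every fit, hold none of the motifs searched and are not shown. Nor do those of 2610035D17Rik, B230354K17Rik and C130071C03Rik hold any, and not every gene that fell in every fit is covered here. Each sequence shown runs from 250 bases before the RefSeq start to 50 bases after it. The RefSeq starts of Oip5os1 and Firre lie within 1 base of those given above, but that of Cerox1 lies 453 bases further in, so its window, with the marked motif, lies inside the gene as annotated in the table. The start used for Miat lies 447 bases further in, so the window searched for it is also inside the gene. The motifs searched, on both strands, were TGGGAA, the core bound by the Notch effector RBPJ, CACGTG, an E-box, and CCGGAAG, a core bound by Ets factors. Capitals mark the matches, and a match to the RBPJ core on the other strand reads TTCCCA.
Oip5os1 (chr2:119594046-119594345, plus strand): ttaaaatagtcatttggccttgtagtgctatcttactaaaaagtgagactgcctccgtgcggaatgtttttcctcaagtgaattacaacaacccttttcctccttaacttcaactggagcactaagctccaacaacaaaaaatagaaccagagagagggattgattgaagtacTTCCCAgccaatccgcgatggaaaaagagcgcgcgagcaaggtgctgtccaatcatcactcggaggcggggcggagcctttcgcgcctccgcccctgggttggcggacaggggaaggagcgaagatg
Firre (chrX:50635272-50635571, minus strand): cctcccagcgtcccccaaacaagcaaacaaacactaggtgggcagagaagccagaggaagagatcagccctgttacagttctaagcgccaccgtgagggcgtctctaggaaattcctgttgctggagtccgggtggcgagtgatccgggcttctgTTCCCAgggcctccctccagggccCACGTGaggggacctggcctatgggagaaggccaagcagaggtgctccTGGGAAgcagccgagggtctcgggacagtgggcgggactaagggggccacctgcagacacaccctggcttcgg
Cerox1 (chr17:25570561-25570860, plus strand): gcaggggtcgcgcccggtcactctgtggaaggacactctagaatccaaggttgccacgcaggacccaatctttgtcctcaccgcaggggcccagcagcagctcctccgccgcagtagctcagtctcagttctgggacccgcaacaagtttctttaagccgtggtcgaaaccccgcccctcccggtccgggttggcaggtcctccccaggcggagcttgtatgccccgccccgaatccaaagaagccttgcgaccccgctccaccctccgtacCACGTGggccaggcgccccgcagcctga
A promoter entry whose start lies within 1000 bases of the annotated start was found for 106 of the 193 genes, and the nearest was used. The RBPJ core stood in 27 of these (25.5%), close to the 25.6% of all 32851 promoters, the E-box in 12 (11.3%, against 7.15%) and the Ets core in 25 (23.6%, against 8.86%). By call, the RBPJ core stood in 0 of the 11 promoters of genes that rose, in 6 of the 16 of genes that fell and in 21 of the 79 of genes that were not called. The Ets core stood in 1 of the 11, 0 of the 16 and 24 of the 79. The 32851 promoters are all entries, whether or not the gene was expressed here, so they are unlike the 106 in more than gene type. A match is a run of letters and not a measured binding site, and these counts were not tested.

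Of the 11 listed neural RNAs, 5 were expressed at this level, and 4 of the 5 (Miat, Pantr1, Pantr2 and Six3os1) fell, beside 16.7% of all tested genes. With so few genes this is a count and not a statement on neural RNAs, and of the 4 only Miat passed in every alternative fit. That gene was under 2 FPKM in shRybp and so in the set only through control. The fifth was Sox2ot (chr3:34104270-34682619, plus strand), a transcript whose long span holds the progenitor gene Sox2 in an intron on the same strand. Sox2ot had 2.21 and 1.92 FPKM in shRybp libraries and 2.28 and 2.54 FPKM in control libraries. Both shRybp libraries lay below both control libraries, by a narrow margin for the first of each group. The log2 fold change was -0.26 ± 0.10 (SE), with a 95% interval of -0.47 to -0.05, and missed the threshold (edgeR adjusted p = 0.059). It was within the threshold without the first shRybp library (0.038) or without the first control library (0.035), and outside it without the second control library (0.25) or without the second shRybp library (0.39). No exon of Sox2ot overlaps an exon of a coding gene in the annotation. Sox2, which maintains neural progenitors, had 98.3 and 101.6 FPKM in shRybp and 138 and 130.0 FPKM in control and fell by 0.46 in log2 fold change (edgeR adjusted p = 0.00014).

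Pantr1 and Pantr2 lie beside Pou3f3, a transcription factor gene of upper-layer cortical neurons and their progenitors, and loss of Pantr2 in mice affects cortical progenitors. Pantr1 (chr1:42590782-42694842, minus strand) had 18.5 and 17.2 FPKM in shRybp and 23.0 and 20.3 FPKM in control, a log2 fold change of -0.32 ± 0.08 (edgeR adjusted p = 0.0090; 0.073 without the second shRybp library and 0.082 without the first control library). Pantr2 (chr1:42707061-42713454, minus strand) had 5.37 and 5.76 FPKM in shRybp and 7.31 and 7.92 FPKM in control, a log2 fold change of -0.49 ± 0.15 (edgeR adjusted p = 0.023; 0.11, 0.066 and 0.075 without the first shRybp, the second shRybp or the second control library, and 0.14 in DESeq2). The groups of both genes were apart. Pou3f3 itself, whose start lies 926 bases from that of Pantr1 on the other strand, had 37.4 and 38.6 FPKM in shRybp and 43.0 and 42.5 FPKM in control and fell by 0.21 (edgeR adjusted p = 0.018; 0.094 without the first shRybp library and 0.082 without the first control library). Six3os1, opposite the forebrain gene Six3, had 3.36 and 3.19 FPKM in shRybp and 3.69 and 3.85 FPKM in control (log2 fold change -0.24 ± 0.08, edgeR adjusted p = 0.046), and it was lost in 9 of the 12 alternative fits. Its adjusted p was between 0.061 and 0.20 with any 1 library left out, 0.14 in DESeq2, 0.083 with library totals, 0.058 with upper quartile factors and 0.18 in both limma fits. Six3 had 1.69 and 2.11 FPKM in shRybp and 2.03 and 2.07 FPKM in control, and its groups overlapped.

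**Figure D3:**
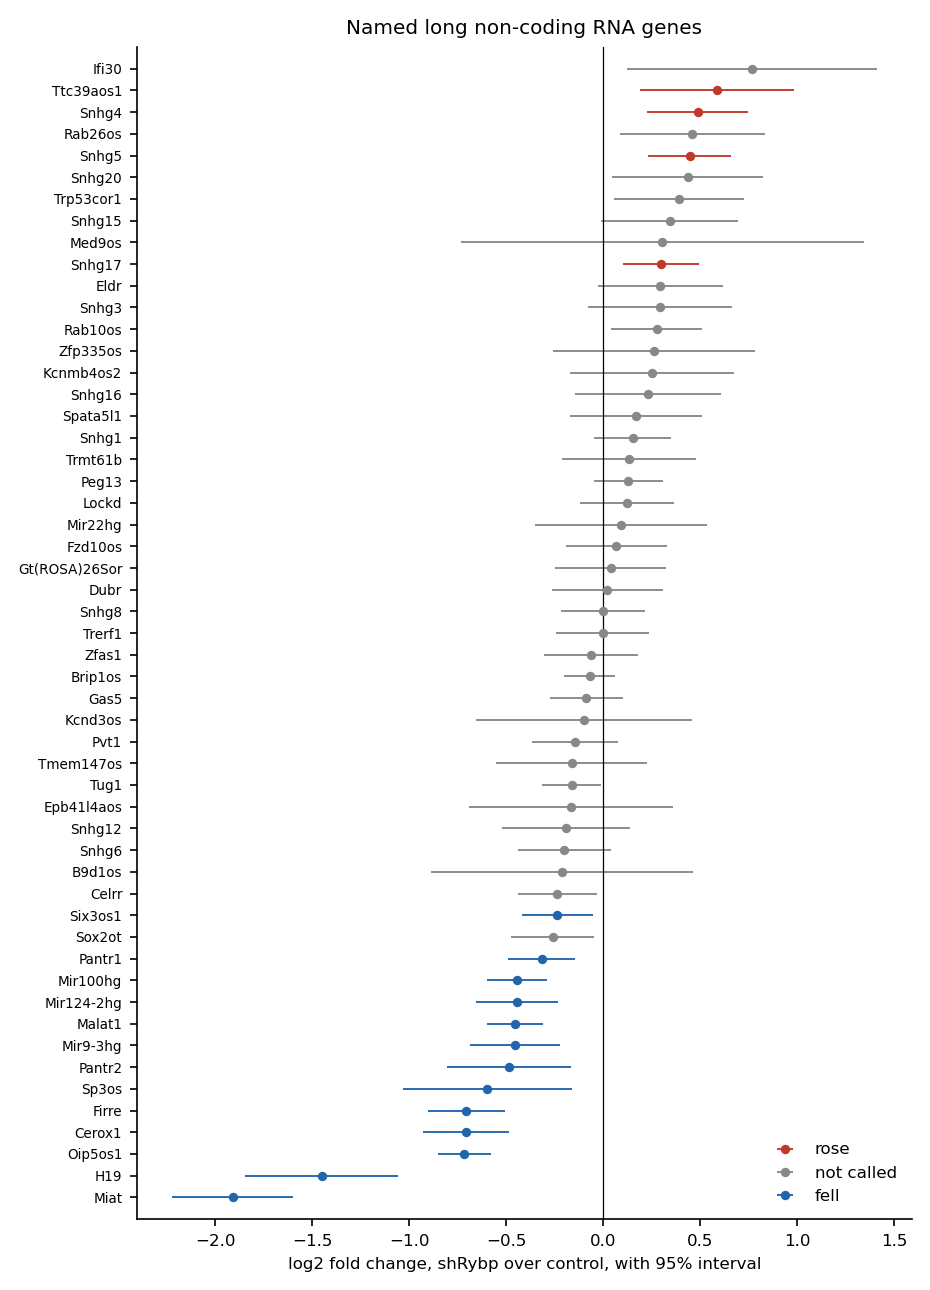
Log2 fold change of shRybp over control with its 95% interval for the 53 named long non-coding RNA genes, ordered by fold change, with calls in colour (red rose, blue fell, grey not called). The 13 genes that fell fill the low end except for Sox2ot, which stands among them at -0.26 without a call, and the 4 genes that rose are mixed with wide intervals such as that of Ifi30, at 0.77.

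Of the 10 listed microRNA hosts, 4 were expressed at this level and 3 of them fell. By annotation, 11 expressed genes hold a microRNA hairpin, and the listed host Mir124-2hg is not among them. Of these 11, 4 (36.4%) fell, namely C130071C03Rik, H19, Mir100hg and Mir9-3hg, and none rose. Over all tested genes 16.7% fell and 16.3% rose, and the difference was not tested. H19, under 2 FPKM in shRybp, was in the set only through control, and Mir100hg and Gm28119 share the miR-125b-1 hairpin. Some of the mature sequences carried by hosts named here, from RefSeq for GRCm38.p6, are shown, and miR-9 and miR-125b have more than 1 host. The selection leaves out other strands and hosts, and for let-7a-2 it holds the 3p strand alone. Capitals mark the seed, bases 2 to 8 from the 5′ end, which pairs with target messenger RNAs.
mmu-miR-9-5p, chr13:83738821-83738843 (plus strand) in C130071C03Rik: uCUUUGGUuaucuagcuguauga
mmu-miR-9-3p, chr13:83738858-83738879 (plus strand) in C130071C03Rik: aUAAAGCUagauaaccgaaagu
mmu-miR-100-5p, chr9:41531437-41531458 (plus strand) in Mir100hg: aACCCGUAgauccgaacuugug
mmu-let-7a-2-3p, chr9:41536777-41536797 (plus strand) in Mir100hg: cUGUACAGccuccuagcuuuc
mmu-miR-125b-5p, chr9:41581940-41581961 (plus strand) in Mir100hg and Gm28119: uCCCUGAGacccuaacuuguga
mmu-miR-675-5p, chr7:142577112-142577133 (minus strand) in H19: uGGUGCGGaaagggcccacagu
mmu-miR-22-3p, chr11:75463772-75463793 (plus strand) in Mir22hg: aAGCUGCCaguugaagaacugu
The libraries measured host transcripts, and the mature microRNAs were not measured. The miR-9 pair, with the seeds CUUUGGU and UAAAGCU, is the same in its 3 hosts, C130071C03Rik (Mir9-2), Mir9-3hg (Mir9-3) and Gm3764 (Mir9-1), so the same product has 3 sources.

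miR-9 is a microRNA of neural progenitors that favours their differentiation. C130071C03Rik (chr13:83721381-83884194, plus strand) had 20.8 and 22.4 FPKM in shRybp libraries and 35.7 and 32.4 FPKM in control libraries, a log2 fold change of -0.69 ± 0.07 (edgeR adjusted p = 1.6e-05), and it passed in every fit. Mir9-3hg (chr7:79500026-79534403, plus strand) had 8.03 and 8.07 FPKM in shRybp and 9.51 and 12.1 FPKM in control, a log2 fold change of -0.46 ± 0.11 (edgeR adjusted p = 0.0059; 0.055 without the second control library, its highest). Gm3764 (chr3:88206813-88229959, plus strand), the most abundant of the 3 hosts per length, had 65.5 and 79.7 FPKM in shRybp and 72.2 and 86.7 FPKM in control. Its groups overlapped, and its log2 fold change of -0.16 (95% interval -0.37 to 0.04, edgeR adjusted p = 0.21) was called without the second shRybp library (0.023) and without the first control library (0.016). Just before it on the same strand lies AW047730 (chr3:88200623-88203481), an RNA with no hairpin of its own, which had 9.17 and 10.1 FPKM in shRybp and 17.3 and 19.1 FPKM in control and fell by 0.95 on the log2 scale (SE 0.09, edgeR adjusted p = 1.2e-05).

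Mir124-2hg, a host of the neuronal microRNA miR-124, had 2.83 and 2.96 FPKM in shRybp and 3.97 and 3.72 FPKM in control, a log2 fold change of -0.45 ± 0.10 (edgeR adjusted p = 0.0041). Mir100hg (chr9:41327077-41716994, plus strand), which carries miR-100, let-7a-2 and miR-125b-1, had 3.20 and 3.25 FPKM in shRybp and 4.06 and 4.51 FPKM in control, a log2 fold change of -0.44 ± 0.07 (edgeR adjusted p = 0.00050). Both genes passed in all 12 alternative fits, and their groups were apart. Gm28119 lies inside Mir100hg on the same strand, over the miR-125b-1 hairpin, so these genes can share reads. It had 3.97 and 4.90 FPKM in shRybp and 7.04 and 7.14 FPKM in control (log2 fold change -0.70 with a 95% interval of -1.33 to -0.07, edgeR adjusted p = 0.082). Mir22hg, the host of miR-22, had 2.20 and 3.07 FPKM in shRybp and 2.36 and 2.51 FPKM in control, and its groups overlapped (log2 fold change 0.09, edgeR adjusted p = 0.77). Below the threshold of 2 FPKM, Mir17hg, the host of the growth-promoting miR-17 cluster, had 1.83 and 1.79 FPKM in shRybp and 1.09 and 1.22 FPKM in control and rose by 0.61 in log2 fold change (edgeR adjusted p = 0.020). Dleu2, of the same list and also below the threshold, was not called (log2 fold change 0.08, edgeR adjusted p = 0.62). The other listed hosts below the threshold had too low a level to be tested.

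Of the 16 listed snoRNA hosts, 14 were expressed at this level, and 3 of them (21.4%) rose (Snhg4, Snhg5 and Snhg17) while none fell. Of all 18 expressed genes with an annotated snoRNA inside on the same strand, 5 (27.8%) rose and none fell. These shares stand beside 16.3% that rose and 16.7% that fell of all tested genes, the difference was not tested, and the median log2 fold change was 0.26, against -0.04 for the 193 genes. Snhg5 (chr9:88495268-88523562, minus strand), which carries Snord50a and Snord50b, had 7.18 and 8.14 FPKM in shRybp and 5.21 and 5.79 FPKM in control, a log2 fold change of 0.45 ± 0.10 (edgeR adjusted p = 0.0043). Snhg4, which carries Snora74a, had 3.22 and 3.30 FPKM in shRybp and 2.33 and 2.20 FPKM in control, a log2 fold change of 0.49 ± 0.12 (edgeR adjusted p = 0.0081). Snhg17 had 4.38 and 4.89 FPKM in shRybp and 3.68 and 3.69 FPKM in control, a log2 fold change of 0.30 ± 0.09 (edgeR adjusted p = 0.024). In each of them both shRybp libraries lay above both control libraries. The other hosts that rose carry clone symbols. 1110038B12Rik, the host of Snord52, had 22.4 and 24.7 FPKM in shRybp and 15.8 and 16.1 FPKM in control (log2 fold change 0.53 ± 0.09, edgeR adjusted p = 0.00068). 2700038G22Rik, the host of Snord93, had 4.80 and 5.84 FPKM in shRybp and 3.52 and 3.65 FPKM in control (log2 fold change 0.54 ± 0.17, edgeR adjusted p = 0.025).

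Most of these calls were not stable. Without the second shRybp library 1110038B12Rik still passed (edgeR adjusted p = 0.0033), and Snhg4 (0.052), Snhg5 (0.061), Snhg17 (0.20) and 2700038G22Rik (0.22) did not. Snhg17 also missed the threshold without either control library (0.057 and 0.081), and 2700038G22Rik without the first (0.063). With all libraries, DESeq2 did not call Snhg4 (adjusted p = 0.056), Snhg17 (0.12) or 2700038G22Rik (0.14), and limma on log2(FPKM + 1) did not call Snhg17 (0.056). The second shRybp library held the most counts from the Gm42418 locus, as given below for that gene, and the part of this in the snoRNA host results was not tested. Among the hosts that were not called were the best known ones. Gas5, a host of many snoRNAs that accumulates in growth-arrested cells, had 25.3 and 28.2 FPKM in shRybp and 29.9 and 25.4 FPKM in control, with overlapping groups and a log2 fold change of -0.09 (95% interval -0.28 to 0.10, edgeR adjusted p = 0.47). Snhg1 had 10.4 and 11.7 FPKM in shRybp and 9.92 and 9.49 FPKM in control (log2 fold change 0.15, edgeR adjusted p = 0.23), and Zfas1 had 10.2 and 11.1 FPKM in shRybp and 11.9 and 9.88 FPKM in control (log2 fold change -0.06, edgeR adjusted p = 0.71). The highest estimate among uncalled listed hosts was that of Snhg20, at 0.44 (95% interval 0.05 to 0.82, edgeR adjusted p = 0.081).

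None of the 4 expressed RNAs listed for p53 and growth was called by edgeR, beside 33.0% of all tested genes. With so few genes this is a count and not a statement on such RNAs. Tug1, given above, was 1 of the 4, and 1 of the 6 listed lay below the threshold. Trp53cor1 (lincRNA-p21), a p53 target beside the cell cycle inhibitor gene Cdkn1a, had 3.32 and 3.46 FPKM in shRybp and 2.13 and 2.94 FPKM in control. Its groups were apart, and its log2 fold change was 0.39 (95% interval 0.05 to 0.73, edgeR adjusted p = 0.072; 0.0043 without the second control library). Pvt1, a neighbour of Myc, had 5.58 and 4.70 FPKM in shRybp and 5.21 and 5.88 FPKM in control, with overlapping groups (log2 fold change -0.15, 95% interval -0.37 to 0.08). Lockd, downstream of Cdkn1b, had 3.22 and 2.91 FPKM in shRybp and 2.85 and 2.63 FPKM in control (log2 fold change 0.12, 95% interval -0.12 to 0.36). 2900097C17Rik, the mouse Norad gene whose RNA binds PUMILIO proteins, was among the most abundant, with 46.7 and 49.6 FPKM in shRybp and 45.7 and 43.5 FPKM in control (log2 fold change 0.07, 95% interval -0.06 to 0.21).

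Many of these genes start beside a coding gene. Head-to-head pairs, with starts within 1000 bases on opposite strands, numbered 62, and in 59 of them the coding partner was tested. Both members rose in 5 pairs and both fell in 3, and there was no pair with calls in opposite directions. Over all tested genes 16.3% rose and 16.7% fell, and the counts of pairs were not tested against these shares. In the rising pairs, D130058E05Rik and 2810408I11Rik were under 2 FPKM in control, so they were in the set only through shRybp. In 4 pairs the long non-coding RNA alone was called, in 18 the partner alone and in 29 neither. The log2 fold changes had the same sign in 39 of 59 pairs, with a Pearson correlation of 0.64 (Spearman 0.59) across pairs, which share libraries and, where exons overlap, reads. The correlation was 0.76 in the 26 pairs whose spans overlap and 0.46 in the 33 pairs whose spans are apart. The signs were the same in 20 of the 26 and in 19 of the 33. Among the 26, both members rose in 3 pairs and both fell in 2, and among the 33 these counts were 2 and 1.

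**Figure D4:**
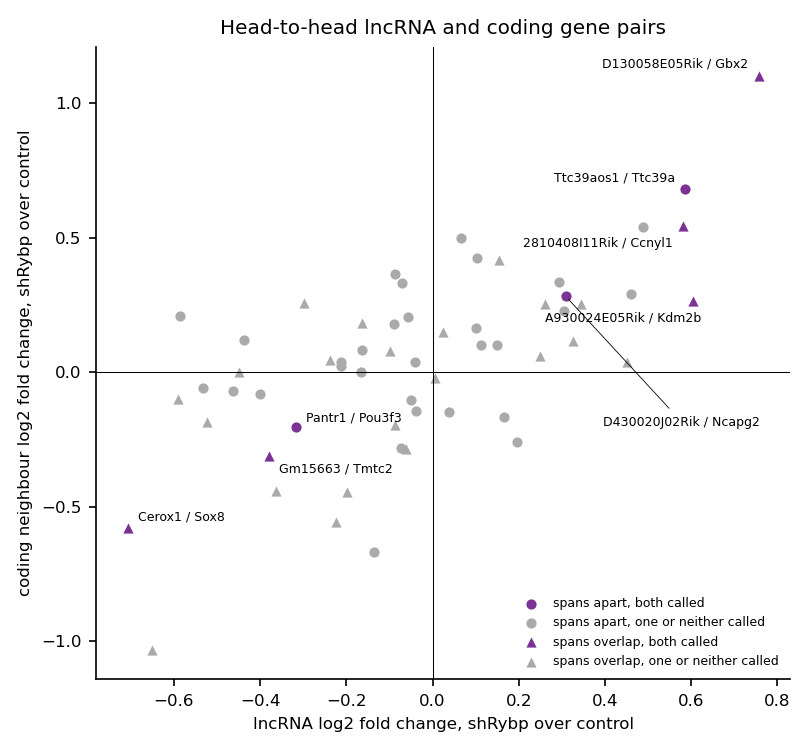
Log2 fold change (shRybp over control) of the long non-coding RNA gene against that of its head-to-head coding neighbour for 59 pairs, with triangles for overlapping spans, circles for spans apart and purple where both were called. All 8 purple pairs lie in the quadrants of equal sign.

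The pair with the strongest fall of the 8 was Cerox1 with Sox8, a glial lineage transcription factor gene whose start lies 328 bases away on the other strand. Sox8 had 50.6 and 57.1 FPKM in shRybp and 77.6 and 79.8 FPKM in control, a log2 fold change of -0.58 ± 0.07 (edgeR adjusted p = 4.4e-05), beside -0.71 for Cerox1, and 15.5% of the exon bases of Cerox1 lie over coding exons. The pair with the strongest rise was D130058E05Rik with Gbx2, a homeobox gene of the midbrain and hindbrain boundary. D130058E05Rik had 2.34 and 2.97 FPKM in shRybp and 1.60 and 1.47 FPKM in control (log2 fold change 0.76 ± 0.18, edgeR adjusted p = 0.0062; 0.078 without the second shRybp library). Gbx2 had 2.43 and 2.68 FPKM in shRybp and 1.17 and 1.15 FPKM in control (log2 fold change 1.10 ± 0.20, edgeR adjusted p = 0.0013). Their spans overlap, and 30.9% of the exon bases of D130058E05Rik lie over coding exons, so the rises are not separate measurements.

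A930024E05Rik, opposite Kdm2b, which encodes the CpG island binding subunit of a variant Polycomb complex, had 9.13 and 9.79 FPKM in shRybp and 5.53 and 6.64 FPKM in control. It rose by 0.60 on the log2 scale (SE 0.12, edgeR adjusted p = 0.0024) and passed in every fit. Its span overlaps that of Kdm2b, and 10.5% of its exon bases lie over coding exons, so the rises are not separate measurements. Kdm2b had 7.82 and 8.74 FPKM in shRybp and 6.75 and 6.69 FPKM in control and rose by 0.27 (edgeR adjusted p = 0.016; 0.19 without the second shRybp library). Ttc39aos1 had 7.29 and 8.09 FPKM in shRybp and 4.56 and 5.47 FPKM in control (log2 fold change 0.59 ± 0.18, edgeR adjusted p = 0.027; 0.14 without the second shRybp library, 0.13 without the first control library and 0.15 in DESeq2), and Ttc39a rose with it by 0.68 (edgeR adjusted p = 0.0070). The spans of Ttc39aos1 and Ttc39a are apart, as are those of Pantr1 and Pou3f3 and of D430020J02Rik and Ncapg2, a condensin subunit gene (log2 fold changes 0.31 and 0.28). D430020J02Rik missed the threshold in DESeq2 (adjusted p = 0.16), without the first shRybp library (0.23) and without either control library (0.071 for each), and Ncapg2 missed it without the first shRybp library (0.13) and without the second control library (0.088).

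Elsewhere 1 of 2 neighbours was called. Sp3os had 3.66 and 4.16 FPKM in shRybp and 6.23 and 5.34 FPKM in control (log2 fold change -0.60 ± 0.20, edgeR adjusted p = 0.036), and its adjusted p was 0.16, 0.074 and 0.19 without the first shRybp, the second shRybp or the first control library, and 0.20 in DESeq2. Its opposite neighbour Sp3 had 24.6 and 22.6 FPKM in shRybp and 22.9 and 23.3 FPKM in control, with overlapping groups (log2 fold change -0.01). Fzd10, a Wnt receptor gene, had 13.9 and 15.6 FPKM in shRybp and 10.2 and 10.2 FPKM in control and rose by 0.50 (edgeR adjusted p = 0.0010), and Fzd10os beside it had a log2 fold change of 0.07 (edgeR adjusted p = 0.71). The difference between the members of a pair was not tested.

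Among genes with clone symbols, 14 of 140 rose and 14 fell, beside 16.3% and 16.7% of all tested genes. Gm807 (chr13:99100706-99107580, plus strand), which was under 2 FPKM in control and so in the set only through shRybp, had 3.68 and 3.71 FPKM in shRybp and 1.91 and 1.74 FPKM in control (log2 fold change 0.98 ± 0.18, edgeR adjusted p = 0.0014). Gm29521 had 3.59 and 3.92 FPKM in shRybp and 2.32 and 1.91 FPKM in control (log2 fold change 0.79 ± 0.14, edgeR adjusted p = 0.00078). AI506816 (chr5:23698296-23712667, minus strand) was the most abundant gene with a clear rise: it had 128 and 137 FPKM in shRybp and 84.4 and 80.6 FPKM in control, a log2 fold change of 0.64 ± 0.06 (edgeR adjusted p = 1.4e-05). Replicates of all 3 lay close together beside the gap between the groups, and each passed in every fit.

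The most abundant of the 193, Gm42418 (chr17:39846958-39848788, plus strand), had 543 and 1055 FPKM in shRybp and 303 and 572 FPKM in control. Its groups overlapped, and within each group the second library was far above the first. The log2 fold change was 0.83 ± 0.27 (edgeR adjusted p = 0.030), and it missed the threshold without the second shRybp library (0.31), in DESeq2 (0.38) and in limma on log2(FPKM + 1) (0.13). Gm26917 ends just before it on the same strand and had 3.26 and 6.64 FPKM in shRybp and 2.35 and 3.87 FPKM in control (log2 fold change 0.65, edgeR adjusted p = 0.084; 0.00037 without the first shRybp library and 0.00030 without the second control library). Both genes are known to lie over a copy of the ribosomal RNA precursor, and together they took 0.101% and 0.196% of all counts in shRybp and 0.0564% and 0.106% in control. The 191 other genes took 0.519% and 0.555% in shRybp and 0.541% and 0.565% in control. Gm42047, the next in abundance, had 121 and 144 FPKM in shRybp and 95.4 and 115 FPKM in control (log2 fold change 0.30, edgeR adjusted p = 0.026), with a narrow gap between groups, and its adjusted p was 0.21 without the second shRybp library, 0.16 without the first control library and 0.23 in DESeq2. Ifi30, a name better known for a coding gene, is typed as lncRNA in the table and had 2.76 and 4.90 FPKM in shRybp and 1.85 and 2.62 FPKM in control (log2 fold change 0.77 with a 95% interval of 0.12 to 1.41, edgeR adjusted p = 0.065; 0.0082 without the first shRybp library and 0.025 without the second control library).

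On the falling side, 2610035D17Rik (chr11:113043895-113201838, minus strand) had 3.11 and 3.27 FPKM in shRybp and 5.48 and 5.93 FPKM in control, a log2 fold change of -0.87 ± 0.14 (edgeR adjusted p = 0.00052), and passed in every fit. B230354K17Rik, opposite Cdc5l, had 6.02 and 5.46 FPKM in shRybp and 8.26 and 8.57 FPKM in control, a log2 fold change of -0.59 ± 0.09 (edgeR adjusted p = 0.00028), and also passed in every fit. Gm5089, inside Clybl on the other strand, had 4.44 and 4.08 FPKM in shRybp and 7.33 and 6.00 FPKM in control (log2 fold change -0.69 ± 0.17, edgeR adjusted p = 0.0082; 0.051 without the second shRybp library and 0.061 without the first control library). 2010001A14Rik had 5.36 and 5.03 FPKM in shRybp and 7.15 and 8.07 FPKM in control (log2 fold change -0.59 ± 0.19, edgeR adjusted p = 0.032), and its adjusted p was 0.079, 0.15 and 0.13 without the first shRybp, the second shRybp or the second control library, and 0.19 in DESeq2. The shRybp libraries of all 4 genes lay below their control libraries.

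The share of genes called went with read depth. The 193 genes had a median of 113.75 counts and a median SE of 0.17 on the log2 scale, beside 584.25 counts and 0.09 for all tested genes, and 25 of them had a library with under 30 counts. Of genes with a mean count under 100, 6 of 77 long non-coding RNA genes (7.79%) and 168 of 1471 of all tested genes (11.4%) were called. At 100 to under 300 counts these were 16 of 71 (22.5%) and 617 of 2321 (26.6%), at 300 to under 1000 counts 14 of 28 and 1452 of 4211 (34.5%), and from 1000 counts 9 of 17 (52.9%) and 1746 of 4059 (43.0%). The groups did not overlap in 115 of the 193 genes (59.6%), against 67.5% of all tested genes and 69.8% of tested protein-coding genes.

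**Figure D5:**
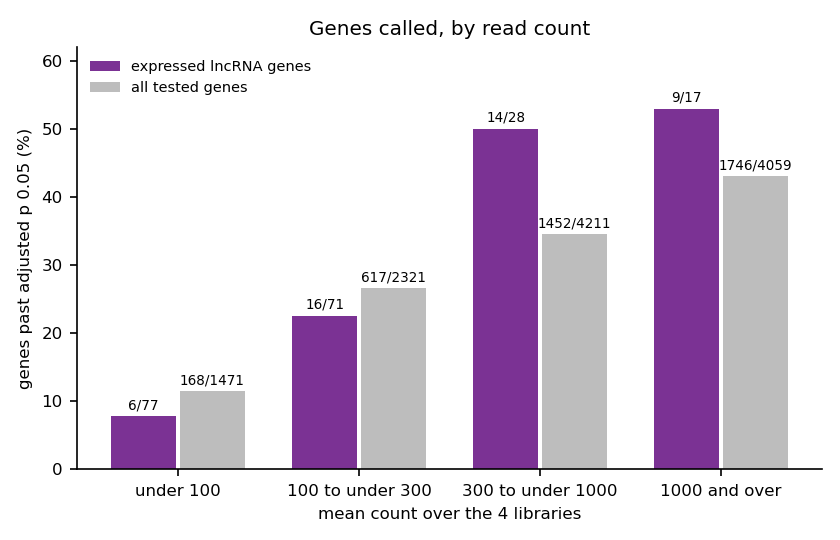
Share of genes called (%) by mean count over the 4 libraries, for the expressed long non-coding RNA genes (purple) and all tested genes (grey), with called and total numbers above each bar. Both shares go up with the count, to 52.9% and 43.0% in the highest band.

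By annotated class, 11 of 78 intergenic genes fell and 5 rose, 5 of 47 antisense genes fell and 4 rose, and 9 of 51 processed transcripts fell and 8 rose. The other classes were small, and Gm10762, which was not called, is typed as protein coding in GENCODE M21. These counts, and those by overlap that follow, stand beside 16.7% that fell and 16.3% that rose of all tested genes. A coding gene overlapped 80 of the 193 genes, of which 11 fell and 8 rose, and of the 113 that overlap none, 16 fell and 10 rose. Coding exons covered part of the exons of 63 genes. Genes that fell were longer and more abundant than the rest: their median exon length was 3440 bases and their median level 6.59 FPKM, against 2641 bases and 4.40 FPKM for those that rose and 1803 bases and 3.16 FPKM for those not called. Length and level both raise the count, on which the test depends, so these medians are a description. Of the 193 genes, 131 had a mean between 2 and 5 FPKM and 3 a mean above 100 FPKM.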

How the data were processed

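The authors deposited raw read counts per gene and library, beside FPKM values that the authors computed from them. Per the submitters' processing notes the build is mm10. The sources used here name no aligner, counting program or strandedness. Groups were compared with edgeR 4.0.16 in R 4.3.3 (TMM factors, quasi-likelihood test) on the counts of 12062 genes that averaged at least 1 FPKM, with Benjamini-Hochberg adjustment over all of them and a threshold of 0.05. Intervals are 95% intervals. The code was tested on simulated data. Replicates of a group differed by more than counting noise (chi-square per degree of freedom 4.36 in shRybp and 5.18 in control), so each was kept.

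Positions, classes and overlaps were read from GENCODE M21, also on mm10, where all 193 genes were found and 188 had the start and end of the table. Members and gene lists were chosen with earlier results of these data known. Individual genes were named if they had a name rather than a clone symbol, if they were among the 6 largest called changes in either direction without a name, or if they were the nearest coding gene. The microRNA and snoRNA hosts with clone symbols, the most abundant genes, Gm26917, Gm28119, Fzd10 with its neighbour, and the motifs were chosen after their values were seen.

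Alternatives were DESeq2 1.42.0, limma 3.58.1 on log2(FPKM + 1) and log2(FPKM + 0.1), other scaling and filters, the replicate number as a block, leaving out each library, and other member thresholds.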

Additional observations from a re-analysis of the deposited data

How the results depend on the processing

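Among the 193 genes, 7 rose in DESeq2, whose adjusted p was not available for 8 of them. Of the 45 called genes, 25 were also called by DESeq2. The median log2 fold change was -0.0051 in limma on log2(FPKM + 1) and -0.0059 with a pseudocount of 0.1. At a member threshold of 5 FPKM, 8 rose, 16 fell and the median was -0.14. Among genes that overlap no coding gene, 10 rose and 16 fell. With 1 library left out, 6 to 17 rose, 16 to 24 fell and the median lay between -0.0816 and -0.0057, while over all tested genes 1296 to 1640 rose and 1481 to 1760 fell. These fits leave 1 group with a single library, assumed to vary like the other group. The lowest counts (6 and 16, and 1296 that rose over all genes) came without the second shRybp library, while 17 rose and 23 fell without the first, and the cause was not tested.

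With the replicate number as a block, 27 of the 193 rose and 40 fell (2676 and 2652 over all genes), and all 45 calls stood. The labels do not pair the libraries, and the differences between same-numbered replicates correlated at 0.103 between groups over genes. Library totals in place of TMM gave 22 that rose and 23 that fell, with a shift of all genes by 0.039 on the log2 scale. The other counts stayed within 1.5 times those reported. Of 36 named genes that were not called, 15 changed sign in some fit. Leaving out 1 library, Gas5 ranged between -0.2116 and 0.0417, Mir22hg between -0.1735 and 0.2974 and Zfas1 between -0.1980 and 0.0856. Precision is limited by counts: 25 genes had a library with under 30.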
